A study of Arabidopsis thaliana with 4 samples.

Results

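The loci described here are the 687 rows of the authors' gene table that carry no gene name, out of 34288 rows in all. They were chosen by that empty name and not by any measured value. Of the other rows, 32778 carry 1 gene code and 823 join several codes, and the rows with 1 code serve below as the named loci. The libraries hold RNA of 4 organs of Arabidopsis thaliana Col-0, a laboratory strain of the thale cress. Roots and leaves were taken at an age of 2 weeks from plants on MS plates, and the growth protocol calls the leaf material the aerial part. Flowers and siliques, the pods with the developing seeds, were taken at 5 weeks from plants in soil, and all were kept under long days at 22 °C. With 1 library per organ there are no replicates, so the differences below carry neither an error between replicates nor a p-value.

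A program that assembles transcripts from aligned reads proposes a locus wherever reads pile up, and a locus outside the gene models it was given stays without a name. Such intergenic transcripts include long noncoding RNAs, short coding genes missing from an annotation, extensions of neighbouring genes and pieces of repeats. In plants many long noncoding RNAs are made at low levels and in few organs. Some of the unnamed loci lie at a gene of the reference annotation used here and others at none, and both kinds are described below. Why a name is missing was not tested. Levels are given as the FPKM that the authors deposited, a count of fragments divided by transcript length and by sequencing depth. A locus was counted as detected at an FPKM of at least 1.

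A pair of short runs shows how alike an unnamed locus can be to a named gene elsewhere. XLOC_008598 at chr1:24328303-24328419, printed here as read on the plus strand, had the highest value of any unnamed locus. Its best other place in the genome is chr5:4868152-4868251, read on the minus strand, inside AT5G15030. Capitals mark the 99 bases that match between both places.
XLOC_008598: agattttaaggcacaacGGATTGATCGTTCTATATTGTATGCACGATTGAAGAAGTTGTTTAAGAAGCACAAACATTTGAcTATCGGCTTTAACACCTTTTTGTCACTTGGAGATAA
AT5G15030 stretch: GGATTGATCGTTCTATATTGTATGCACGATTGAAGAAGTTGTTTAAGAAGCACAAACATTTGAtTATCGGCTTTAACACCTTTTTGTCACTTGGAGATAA

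A second set shows how alike neighbouring unnamed loci can be. These 3 stretches come from loci within 1 gap between genes on chromosome 3, at chr3:8364740-8364960, chr3:8366847-8367067 and chr3:8371031-8371270, all read on the plus strand. Capitals mark the 180 bases that are the same in all 3 in their alignment.
XLOC_021035: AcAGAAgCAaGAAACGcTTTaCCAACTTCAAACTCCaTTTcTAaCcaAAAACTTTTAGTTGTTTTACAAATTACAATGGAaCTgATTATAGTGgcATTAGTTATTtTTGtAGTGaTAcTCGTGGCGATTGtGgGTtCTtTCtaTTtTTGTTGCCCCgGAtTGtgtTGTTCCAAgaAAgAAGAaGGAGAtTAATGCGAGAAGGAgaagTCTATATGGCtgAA
XLOC_021037: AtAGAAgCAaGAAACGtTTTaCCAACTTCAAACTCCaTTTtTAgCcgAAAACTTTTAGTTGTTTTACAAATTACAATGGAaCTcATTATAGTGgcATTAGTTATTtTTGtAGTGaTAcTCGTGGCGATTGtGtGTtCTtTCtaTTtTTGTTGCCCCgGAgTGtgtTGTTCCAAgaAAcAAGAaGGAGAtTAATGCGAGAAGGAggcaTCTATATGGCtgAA
XLOC_021039: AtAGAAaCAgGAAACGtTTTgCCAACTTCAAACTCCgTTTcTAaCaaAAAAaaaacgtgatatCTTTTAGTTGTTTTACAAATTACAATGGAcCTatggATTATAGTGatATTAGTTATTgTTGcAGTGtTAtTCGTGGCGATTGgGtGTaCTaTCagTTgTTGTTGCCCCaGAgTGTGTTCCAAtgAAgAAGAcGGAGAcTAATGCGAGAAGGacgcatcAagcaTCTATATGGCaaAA
All 5 runs were read from the TAIR10.1 reference.

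Most unnamed loci were at low levels. A usable status in all 4 libraries was given for 675 of the 687 loci. Of these, 245 (36.3%, 95% Wilson interval 32.8 to 40.0) reached an FPKM of 1 in some organ, against 69.0% of the named loci. The intervals of shares cover the sampling of loci only. In roots 84 loci (12.4%) were detected and in leaves 70 (10.4%). In flowers there were 136 (20.1%) and in siliques 119 (17.6%). Flowers and siliques thus each held more detected unnamed loci than roots or leaves, while the named loci ranged from 52.6% in leaves to 60.3% in flowers. The unnamed loci lay between 2 named classes. Of the named loci for long or unclassified noncoding RNAs 81.4% reached an FPKM of 1 in some organ, and of the named pseudogenes and transposable element genes 6.72% did.

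**Figure D1:**
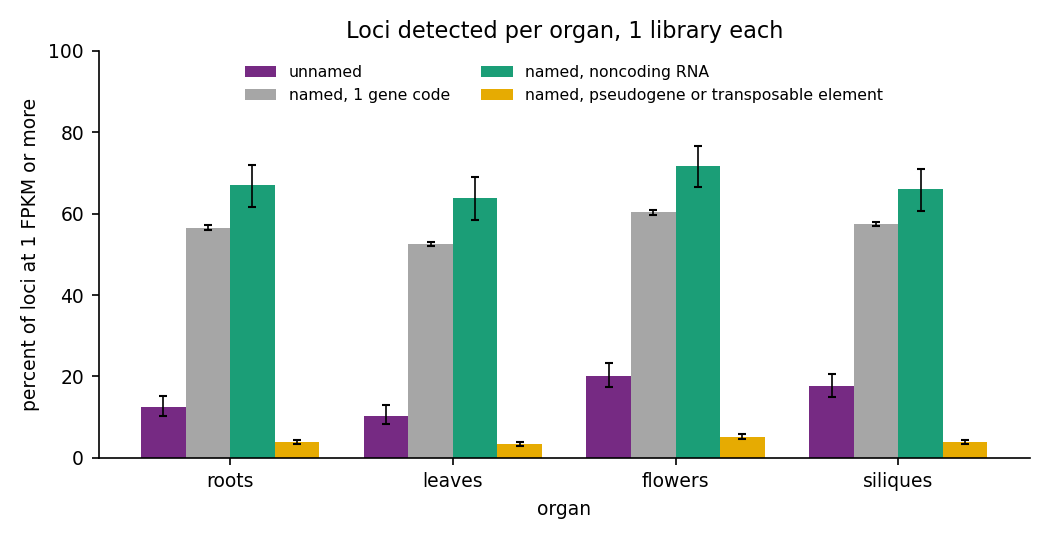
Bars give the percent of loci with an FPKM of at least 1 in each organ (x axis) for the unnamed loci, all named loci with 1 gene code, and 2 of their classes, and error bars are 95% Wilson intervals over loci. The unnamed bars run from 10.4% in leaves to 20.1% in flowers, below the named noncoding RNAs and above the named pseudogenes and transposable element genes in every organ.

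Detection was also narrow. Of the 675 loci, 430 were under 1 FPKM everywhere, 161 were detected in 1 organ, 33 in 2, 22 in 3 and 29 (4.30%) in all 4. Among the named loci 47.1% were detected in all 4 organs. Flowers alone accounted for 64 loci, siliques alone for 54, roots alone for 28 and leaves alone for 15. No unnamed locus (0 of 675) was listed at 0 in every organ, while 4182 named loci (12.8%) were. A named locus is listed because a gene model exists, whereas an unnamed one is listed because reads were assembled there, so this count follows from how such tables are made. The part of that difference in the other contrasts with named loci was not tested.

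The 245 loci detected in some organ are the ones compared between organs. Their highest value had a median of 2.62 FPKM, with quartiles of 1.48 and 4.78, against 17.8 FPKM for the named loci. The named noncoding RNAs had a median highest value of 8.01 FPKM and the named pseudogenes and transposable element genes 3.11 FPKM. At 10 FPKM or more there were 32 unnamed loci. Together the unnamed loci made up 0.0860% of the summed FPKM in roots and 0.0632% in leaves. The share was 0.162% in flowers and 0.160% in siliques.

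The authors' intervals around these values were wide. A lower end above 0 was found for 3 of the 84 loci detected in roots, 1 of 70 in leaves, 3 of 136 in flowers and 1 of 119 in siliques. Over the whole table such a lower end was found for 14.9% to 16.7% of the detected loci. The loci behind these counts are few. XLOC_028408, the longest nuclear locus with an interval of its own, had it in all 4 organs, XLOC_019956 in roots and flowers, XLOC_015450 in roots and XLOC_006133 in flowers. Values whose upper end was 3 times the level, taken as about 1 fragment, were found for 28 to 48 loci per organ, and their median level was 0.0135 to 0.0177 FPKM. The highest such value was 2.89 FPKM (XLOC_008452 in roots), while the highest in leaves, flowers and siliques was 0.137, 0.284 and 0.119 FPKM. In roots 1 FPKM was put at about 118 fragments per kb, and XLOC_008452 spans 264 bases. Whether its 2.89 FPKM stands for 1 fragment was not tested. These intervals are the authors', and their confidence level is not given in the sources used here.

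Organ specificity was measured with tau, an index on log2(FPKM + 1) that is 0 for equal levels and 1 for a locus in 1 organ. The median tau of the unnamed loci was 0.858 (quartiles 0.539 and 0.979), against 0.237 for the named loci. Low loci have high tau in both groups, so the comparison was repeated within ranges of the highest level. From 1 to 2 FPKM the medians were 0.895 unnamed and 0.735 named. From 2 to 5 FPKM they were 0.852 and 0.561, and from 5 to 10 FPKM 0.849 and 0.313. At 10 FPKM or more they were 0.681 and 0.177. The unnamed median was the higher one in each of the 4 ranges.

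Unnamed loci had their maximum in siliques more often than named loci, and in roots less often. The highest value lay in flowers for 92 loci (37.6%), in siliques for 73 (29.8%, interval 24.4 to 35.8), in roots for 51 (20.8%) and in leaves for 29 (11.8%). Among the named loci flowers held 31.4%, siliques 15.4%, roots 39.6% and leaves 13.6%. The leading organ of the unnamed loci depended on the scaling. After median-of-ratios scaling siliques held 79 of 232 loci (34.1%) and flowers 76 (32.8%), while siliques held 21.3% of the named loci and flowers 20.9%. Siliques held the maximum of 15 of the 32 unnamed loci at 10 FPKM or more (46.9%), against 14.7% of the named loci there. From 1 to 2 FPKM the silique shares were 29.3% unnamed and 19.6% named, and from 5 to 10 FPKM 33.3% and 14.0%. From 2 to 5 FPKM they were 23.0% (interval 15.4 to 32.9) and 18.2%, so the named share lay inside the interval. The age of the plants and the medium changed together with the organ between the vegetative and the reproductive pair, so these cannot be told apart. Organs also differ in their cell types, and in whole organs more cells of a type and more RNA per cell cannot be told apart.

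An organ-preferential locus was one at 4-fold or more above each of the other 3 organs on the FPKM + 1 scale. In siliques 24 of the 245 unnamed loci (9.80%) met this rule, against a background of 2.82% of all compared loci. In flowers there were 12 (4.90%, background 3.65%), in roots 8 (3.27%, background 5.73%) and in leaves 3 (1.22%, background 0.699%). Over the organs this made 47 loci (19.2%, background 12.9%). The share in siliques was above the background at each threshold and pseudocount tried, but its lead over flowers narrowed at lower limits. With a pseudocount of 0.1 FPKM there were 52 silique-preferential and 50 flower-preferential loci, and at 2-fold 54 and 49. None of the calls under the main rule (0 of 47) had separate intervals. That share was not computed over all compared loci, so it has no background here.

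Within the pair that shares age and soil, 26 loci were 4-fold higher in siliques than in flowers (10.6%, background 3.63%), and 15 were higher in flowers (6.12%, background 4.94%). With a pseudocount of 0.1 FPKM the order turned, with 58 higher in siliques (23.7%, background 5.98%) and 64 higher in flowers (26.1%, background 9.52%). At 2-fold it turned too, with 60 (24.5%, background 8.42%) and 62 (25.3%, background 13.5%). Each of these shares was above its background. Within the pair that shares age and plates, 15 loci were higher in roots than in leaves (6.12%, background 9.09%) and 9 were higher in leaves (3.67%, background 7.42%). Both of these shares were below the background, and they stayed below it at 2-fold and with a pseudocount of 5 FPKM. With a pseudocount of 0.1 FPKM both were above it. There, 41 loci were higher in roots (16.7%, background 13.8%) and 32 in leaves (13.1%, background 10.1%). The side of the background thus depended on the pseudocount. After median-of-ratios scaling the split was 12 higher in roots and 13 higher in leaves. The other pairs differ in age and medium as well. Against roots, 32 loci were higher in siliques (13.1%, background 10.6%) and 13 lower (5.31%, background 9.11%), while 20 were higher in flowers (8.16%, background 12.1%) and 11 lower (4.49%, background 8.31%). Against leaves, 27 loci were higher in siliques (11.0%, background 7.07%) and 6 lower (2.45%, background 2.77%), while 16 were higher in flowers (6.53%, background 8.09%) and 5 lower (2.04%, background 2.42%). Calls toward siliques were thus above the background in each pair. These comparisons share the silique library.

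**Figure D2:**
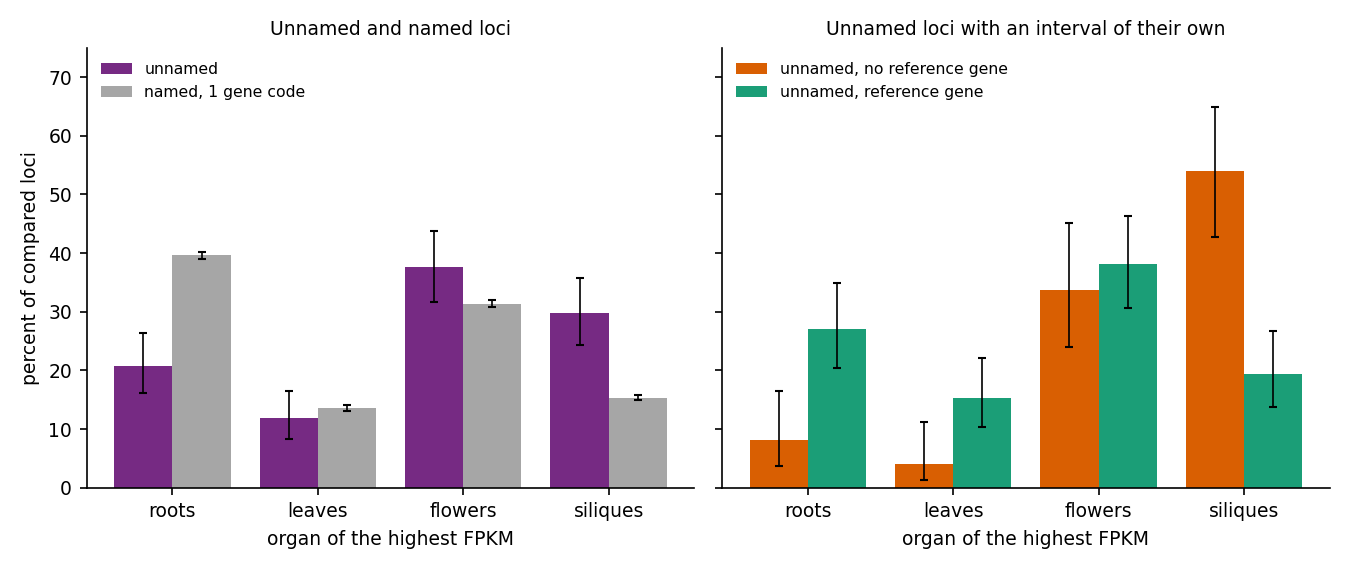
Bars give the percent of compared loci (y axis) whose highest FPKM lay in each organ (x axis), left for 245 unnamed and 22480 named loci, right for unnamed loci with an interval of their own that overlap no gene of the reference (n = 74) or overlap one (n = 144); error bars are 95% Wilson intervals over loci. Siliques hold 29.8% of the unnamed and 15.4% of the named maxima, and 54.1% against 19.4% in the right panel.

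The reference annotation divided the unnamed loci. An interval of their own on a nuclear chromosome was held by 574 loci. At each, the gene annotation that comes with the TAIR10.1 reference was searched, and any shared base on either strand counted. No gene was annotated at 246 of them (42.9%). At 300 (52.3%) there was a gene that has no row in the authors' table, which was a long or unclassified noncoding RNA at 228, a protein-coding gene at 68 and a small RNA at 4. At the remaining 28 there was a gene that has a row elsewhere in the table. Of the 68 protein-coding genes, 47 have the product name uncharacterized protein. In all, 57.1% of the 574 loci overlap a gene of the reference. The reference and the table do not hold the same genes. This share therefore does not show that genes known to the authors went unnamed.

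Loci with and without a reference gene differed in where they were highest. Of the 74 compared loci with no reference gene, 40 (54.1%, interval 42.8 to 64.9) were highest in siliques, 25 in flowers, 6 in roots and 3 in leaves. Of the 144 with a reference gene, 28 (19.4%, interval 13.8 to 26.7) were highest in siliques, 55 in flowers, 39 in roots and 22 in leaves. Without the chromosome 3 loci printed above and their neighbours in the same gap, siliques still held 35 of 69 (50.7%). Without the limit of 1 FPKM the silique shares were 39.0% of 246 and 18.0% of 328, and flowers then led among the loci with no reference gene, at 106 of 246 (43.1%). After median-of-ratios scaling the silique shares were 55.6% of 72 and 23.7% of 139. Under 500 bases siliques held the maximum of 19 of 32 loci without and 5 of 34 with a reference gene, and at 500 bases or more of 21 of 42 and 23 of 110. Loci with no reference gene were also detected less often, with 30.1% against 43.9% reaching 1 FPKM in some organ. At protein-coding genes 57.4% did. The comparison by reference gene was chosen after the values were seen, and the siliques are 1 library.

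Of the 24 silique-preferential loci, 21 have an interval of their own, and 14 of the 21 overlap no reference gene. That is 14 of the 74 compared loci without a reference gene (18.9%) and 7 of the 144 with one (4.86%). All 21 are among the loci highest in siliques counted above, so this is not a separate result. The value was listed as 0 in leaves for 23 of the 24, in roots for 19 and in flowers for 10, and 9 were at 0 in all 3 other organs. A listed 0 can be a failed estimate in this kind of table, so no fold is given against it. None (0 of 24) had a lower end above 0 in siliques.

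XLOC_033996 at chr5:14881361-14884011 had the highest silique value, at 6.67 FPKM in roots and 0 in leaves, with 0 in flowers and 117.4 in siliques. It shares its interval with AT5G37478, which the reference places in the TPX2 family, named for a protein that binds the mitotic spindle. That gene's own row read 4.78, 0.254, 0.280 and 52.1 FPKM in the same order. Both rows were highest in siliques and second in roots, and how fragments were divided between them is not given in the sources used here.

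XLOC_026398 at chr4:13716366-13717579 was present in every organ, at 2.30 FPKM in roots and 3.99 in leaves, with 9.02 in flowers and 112.6 in siliques. The log2 ratio of siliques to flowers was 3.50. It overlaps AT4G07815, a noncoding RNA of the reference, over 25.9% of its span. XLOC_029296 at chr5:21357700-21358441 stood at 0.0612, 0, 0.0107 and 24.7 FPKM, with the largest ratio of the silique-preferential loci, a log2 ratio of 4.60. It lies at AT5G52655, a gene for an uncharacterized protein, and its nearest named neighbour AT5G52650, for an RNA-binding protein with a Plectin/S10 domain, was nearly even at 160.7 to 255.9 FPKM.

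XLOC_008955 at chr2:2130598-2131177 lies at no reference gene and stood at 0, 0, 0.379 and 24.1 FPKM. Its nearest named locus, the transposable element gene or pseudogene AT2G05690, was at 0.00229 FPKM in siliques and 0 elsewhere. XLOC_017604 and XLOC_014332 are rows on 1 interval, chr3:156055-158658, where the reference has AT3G01415. The first stood at 16.5 FPKM in siliques and was listed at 0 in the other organs, and the second was at 3.29 in siliques and 0.0311 in flowers. They are 2 of the 24 calls but come from the same place.

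The gap between AT3G23370, which codes for an RNA-binding protein, and AT3G23380 (RIC5), a partner of ROP GTPases, holds 8 unnamed loci. No other window of 100 kb holds as many. The gap spans 11811 bases, the 8 loci span 10528 bases from first to last, and the reference has no gene between both ends. All 8 were highest in siliques, 8 were listed at 0 in leaves and 7 at 0 in roots. XLOC_021039 was at 62.7 FPKM in siliques and 4.15 in flowers. XLOC_021035 was at 27.0 and 1.61, and XLOC_021037 at 23.5 and 1.21. These 3 are the loci whose sequences are printed above. XLOC_021041 was at 5.53 FPKM in siliques, 0.175 in flowers and 0.114 in roots. XLOC_018854 was at 1.23 in siliques and 0.178 in flowers, and XLOC_021038 at 0.969 and 0.285. XLOC_021036 and XLOC_021040 were at 0.315 and 0.241 FPKM in siliques and listed at 0 elsewhere.

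The sum over the 8 loci was 121.4 FPKM in siliques, 7.60 in flowers and 0.114 in roots, and the silique sum was 11.1% of that of all unnamed loci. The genes on both sides did not share this level. AT3G23370 was at 1.06 FPKM in siliques and at 2.19 in flowers, and RIC5 at 0.153 and 2.34. The loci resemble each other in sequence. Of their 28 pairs, 14 aligned over 130 to 570 columns at 67.3% to 88.7% identity, all 14 in the same orientation. XLOC_021035 and XLOC_021037 were the closest pair, at 88.7% over 373 columns. Fragments from such stretches may align to more than 1 of them, so the division of the level among the 8 loci is uncertain. The longest open reading frames ran from 38 to 74 codons. The intervals reached down to 0 at each of the 8 loci in siliques.

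**Figure D3:**
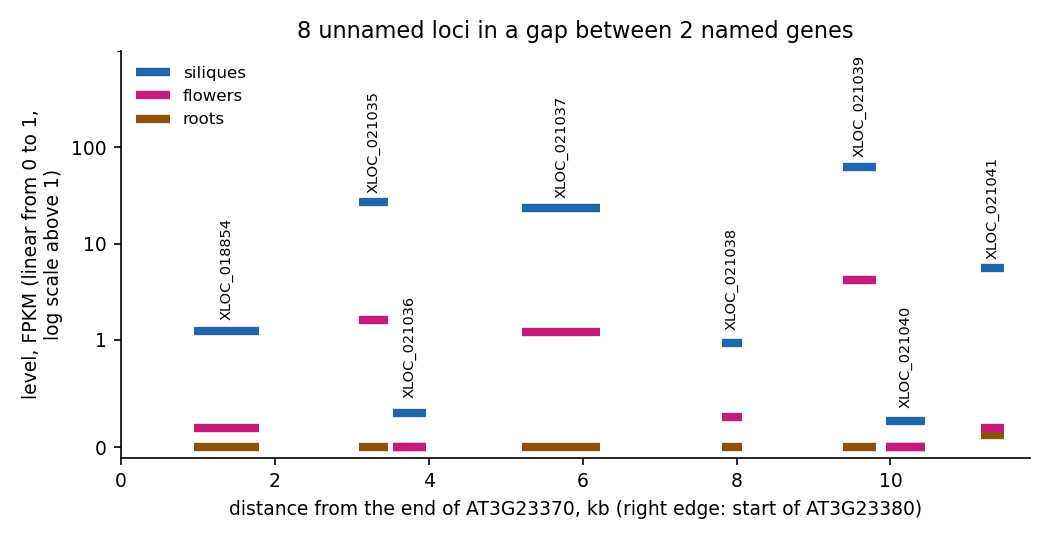
Each bar is 1 unnamed locus, drawn at its distance from the end of AT3G23370 (x axis, kb) and at its FPKM (y axis, linear from 0 to 1 and on a log scale above) in siliques, flowers and roots; leaves are not drawn, since all 8 were listed at 0. The silique bar is the highest at every locus, from 0.241 to 62.7 FPKM.

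Flowers held the highest single value. XLOC_008598, whose sequence opens the account, was listed at 0 in roots and leaves, and reached 228.8 FPKM in flowers (the authors' interval 0 to 789) and 30.1 in siliques. It is 117 bases long and lies 3008 bases from AT1G65480 (FT), the florigen gene, which stood at 0.00600, 1.01, 6.80 and 154.4 FPKM. The 2 were highest in different organs. Its other place lies in AT5G15030, a gene for a Sin3-like protein, at 4.76 FPKM in roots and 3.51 in leaves, with 13.2 in flowers and 9.03 in siliques. That gene was highest in flowers too, and reads that match both places cannot be assigned to 1 of them from this table.

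XLOC_014124 at chr2:1385454-1386073 had the largest ratio of all, at 0.0138 FPKM in roots and 0 in leaves, with 58.8 in flowers and 0.129 in siliques. The log2 ratio to the next organ was 5.73. It lies over 99.7% of its span at AT2G04115, a gene of the plant self-incompatibility protein S1 family, small secreted proteins first known from pollen rejection in poppy. Its longest open reading frame has 137 codons. XLOC_033847 at chr5:1218237-1218936 stood at 0, 0, 9.65 and 0.0120 FPKM and has no reference gene. It lies 891 bases from AT5G04347, another gene of the S1 family, which measured 1.34 FPKM in siliques and 1.15 in flowers. The longest reading frame of XLOC_033847 has 131 codons.

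XLOC_009433 at chr2:5920547-5921114 also has no reference gene, and measured 12.4 FPKM in flowers against 0.0353 in siliques, with 0 in roots and leaves. XLOC_008563 at chr1:22627090-22630013 measured 9.39 FPKM in flowers against 0.149 in siliques. It shares its interval with AT1G61340 (FBS1), an F-box gene, whose own row was highest in roots at 24.1 FPKM and stood at 10.4 in flowers. The unnamed row and the named row of that interval thus had different organs of the maximum.

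Of the 4 most root-preferential loci, 3 lay at noncoding RNA genes of the reference. XLOC_003532 at chr1:25119371-25120008 was at 19.9 FPKM in roots and 0.0149 in leaves, with 0.0145 in flowers and 0 in siliques. AT1G08903, a noncoding RNA on the opposite strand, covers 39.5% of it. The nearest named gene, AT1G67148, lies 1226 bases away and was highest in roots too, with 36.9 FPKM there and 0.0654 to 0.256 elsewhere. XLOC_015450 at chr3:7471076-7472524 (AT3G04105) was at 13.4 FPKM in roots, with an interval from 0.537 to 26.2, and at 0.0276 to 0.585 in the other organs. XLOC_028831 at chr5:17958356-17960187 (AT5G00585) was at 7.92 in roots and 0.256 to 0.399 elsewhere. XLOC_020942 at chr3:206034-206199 was at 6.40 FPKM in roots and listed at 0 in the other organs. It is 166 bases long and lies inside the reference's AT3G01516, whose row in the table, 1136 bases away, was highest in roots as well, at 4.75 FPKM.

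Leaves had 3 preferential loci. XLOC_032981 at chr5:21142616-21144991 (AT5G00650, a noncoding RNA) was at 0.0304 FPKM in roots and 8.02 in leaves, with 1.08 in flowers and 0.0159 in siliques. AT5G52050, a MATE efflux transporter gene 1972 bases away, was highest in leaves too, at 7.78 FPKM. XLOC_008502 at chr1:17389111-17389568 (AT1G07367) was at 0.977, 7.29, 0.0764 and 0.467 FPKM. It lies 110 bases from a row of AT1G47405, and the rows of that code ranged from 0.259 to 6.50 FPKM in leaves. XLOC_034127 at chr5:26906033-26906445 was at 3.69 FPKM in leaves and 0.0843 to 0.143 elsewhere. It lies 6 bases from the row of AT5G67420 (LBD37), a regulator of nitrogen responses, and inside that gene in the reference. LBD37 was highest in leaves at 124.9 FPKM. Each of the 3 leaf loci had its maximum in the organ of the maximum of the gene named with it, which for XLOC_034127 is the gene it lies in. Over all compared pairs with an unnamed maximum in leaves, 5 of 17 (29.4%) matched the nearest named locus. Among named loci with their maximum in leaves 19.0% did.

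Several high loci were not confined to 1 organ. XLOC_021172 at chr3:19099499-19100491 was at 0.166 FPKM in roots and 25.8 in leaves, with 11.2 in flowers and 8.16 in siliques, and shares its interval with AT3G51478. XLOC_008661 at chr1:29647773-29649938 (AT1G78865) was at 4.45, 18.3, 15.3 and 4.11 FPKM. XLOC_026329 at chr4:6992621-6994744 was at 16.0 in roots and 17.7 in flowers but 1.37 in leaves and 1.59 in siliques. It has a copy at 95.8% identity in AT2G45403, which was at 15.1 FPKM in flowers and 0.0355 in roots, so its flower value in particular may include reads of that gene. That was not tested.

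The most even loci include 1 of the highest. XLOC_019400 at chr3:12559191-12560076 was at 61.6 FPKM in roots and 62.0 in leaves, with 95.3 in flowers and 67.1 in siliques, with a tau of 0.0878. It has no reference gene, no other place in the genome and a longest reading frame of 61 codons. Its nearest named locus, AT3G30834, a pseudogene or transposable element gene, was listed at 0 in all 4 organs. XLOC_019956 at chr3:17250911-17255277 was at 59.2, 24.3, 51.5 and 29.6 FPKM. It shares its interval with AT3G46840, a subtilase gene, at 13.9, 6.21, 12.4 and 8.56 FPKM, and both rows had the same order of organs. XLOC_034128 at chr5:26949668-26949998 was at 9.82 to 15.6 FPKM. It has 15 other places in the genome, the best at 94.6% identity in U2.3 (AT3G57765), a gene for the U2 RNA of the spliceosome. XLOC_008057 at chr1:28515196-28515991 (AT1G75945) was at 10.7 to 18.5 FPKM and lies 556 bases from SKP1, a subunit of ubiquitin ligases that was even as well, at 173.1 to 255.5 FPKM.

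**Figure D4:**
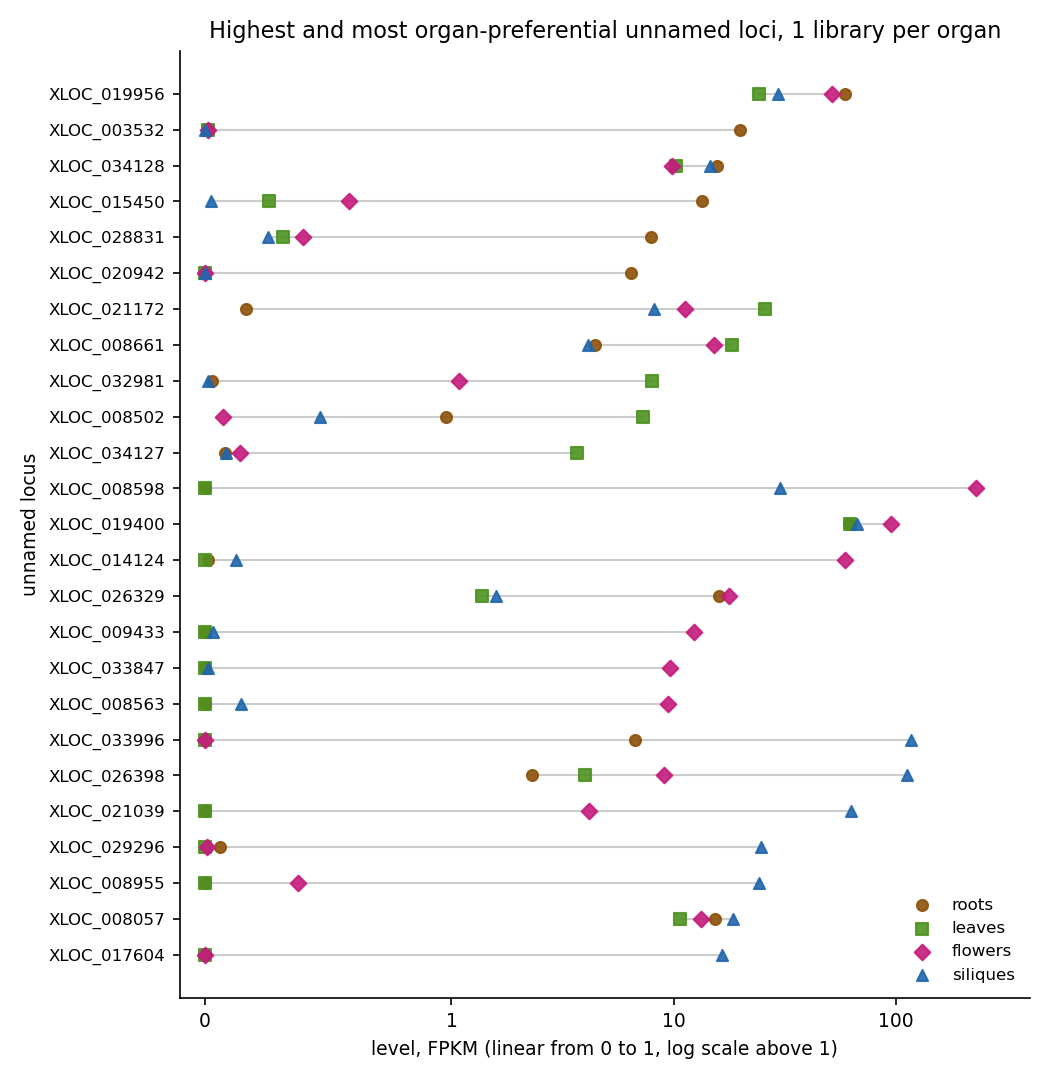
Each row is 1 unnamed locus among the 4 highest of an organ, the 4 most organ-preferential of an organ or the 4 most even, with 1 point per organ at its FPKM (x axis, linear from 0 to 1 and on a log scale above), sorted by organ of the maximum. Points are single libraries; XLOC_019400 lies between 61.6 and 95.3 FPKM in all 4 organs, while XLOC_014124 is at 58.8 FPKM in flowers and at most 0.129 elsewhere.

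Unnamed loci lay on all 5 nuclear chromosomes at like density. Chromosomes 1 to 5 held 175, 103, 152, 100 and 144 loci, or 5.23 to 6.48 per Mb and 18.6 to 22.5 per 1000 named loci. The mitochondrial genome held 13, or 89.7 per 1000 named loci, and the chloroplast genome 0. Every mitochondrial locus was below 1 FPKM. These were XLOC_034264, XLOC_034265, XLOC_034266, XLOC_034269, XLOC_034276, XLOC_034277, XLOC_034280 and XLOC_034282 to XLOC_034287, at 0 to 0.771 FPKM. Of these, 4 were given an interval of 281448 bases each, so their positions say little.

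Position along the chromosomes depended on how gene-poor regions were defined. By the count of named loci in windows of 500 kb, 5 of 240 windows held fewer than 50% of the median count. None of the 674 nuclear unnamed loci lay there, and 0.704% of the named loci did. A count of 0 allows a share of up to 0.445% by the floor of 3 counts and up to 0.567% by the Wilson interval. With windows of 1000 kb the unnamed share was 0.890% and the named share 0.806%. By the count of protein-coding loci, a definition chosen after seeing the data, 41 windows covered 16.6% of the chromosomes. These held 120 unnamed loci (17.8%, interval 15.1 to 20.9), 4.25% of the protein-coding loci and 62.7% of the pseudogenes and transposable element genes. The unnamed loci were thus spread nearly as the length of the windows. Those without a reference gene were there more often (24.0% of 246) than those with one (14.0% of 328). Inside these windows 27.6% of the unnamed loci were detected in some organ and outside 38.9%. Named protein-coding loci lost more between both kinds of window, with 54.1% and 85.0%.

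The unnamed loci were short. Over the 574 with their own interval the span had a median of 680.5 bases, with quartiles of 486 and 932.5, against 1834.5 bases for the named loci. The named noncoding RNAs had a median span of 918.5 bases. Spans under 200 bases were found for 7 loci, and all 7 reached 1 FPKM, at a median highest value of 6.40 FPKM. From 203 to 499 bases 39.9% of 148 loci were detected in some organ, from 503 to 998 bases 31.5% of 295, and from 1000 to 1952 bases 42.9% of 105. Of the 19 loci with 2025 bases or more, 14 (73.7%) were. An FPKM divides by length, so the same number of fragments gives a higher value at a shorter locus. Fragment counts were not used, so the part of this in these values was not tested. The highest value of a locus was never below 2.88 FPKM under 200 bases. It reached down to 0.229 FPKM from 203 to 499 bases and to 0.101 FPKM from 503 to 998 bases.

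The longest and shortest of these 574 loci show this range. XLOC_028408 at chr5:15022152-15028737 spans 6586 bases at AT5G37793 and was at 2.38 FPKM in roots and 1.84 in leaves, with 3.16 in flowers and 2.01 in siliques. Its authors' intervals overlap in all 4 organs, from 0.264 at the lowest end to 5.21 at the highest. XLOC_006133 (4888 bases) at chr1:12920137-12925024 was at 0.616 to 2.20 FPKM. XLOC_019729 (3526 bases) at chr3:15611300-15614825 was at 1.75 FPKM in leaves and at most 0.0630 elsewhere. Its nearest named gene LTPG2, a lipid transfer protein, was highest in siliques at 204.0 FPKM. Next to XLOC_008598, the shortest were XLOC_026364 (151 bases) at chr4:10178461-10178611, at 4.59 to 21.3 FPKM, and XLOC_020942.

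**Figure D5:**
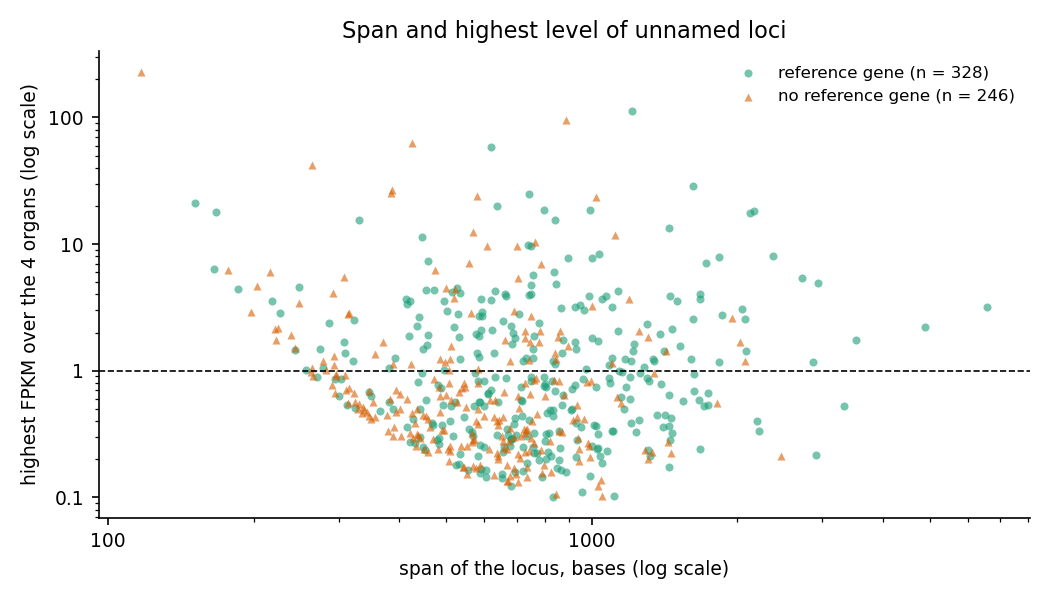
Each point is 1 of 574 unnamed loci with its own nuclear interval, at its span in bases (x axis, log scale) and its highest FPKM over the 4 organs (y axis, log scale); colour and shape tell loci with (n = 328) and without (n = 246) a reference gene, and the dashed line is 1 FPKM. All 7 loci under 200 bases lie above the line, and the lower edge of the points falls from 2.88 FPKM there to 0.101 FPKM at 503 to 998 bases.

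In sequence the unnamed loci were poorer in G and C than coding loci. Their median GC content was 34.6% (quartiles 32.1% and 37.3%), against 39.1% for protein-coding loci, 36.0% for named noncoding RNAs and 36.0% for the nuclear genome. The longest open reading frame on the genome had a median of 57 codons, and 61 loci (10.6%) had one of at least 100 codons. Of the named noncoding RNAs 15.3% did, and of the protein-coding loci, which are longer, 75.4% did. A further place in the genome at 80% identity or more over at least 50% of the locus was found for 133 loci (23.2%). Of these, 104 had 1 to 4 such places and 29 had 5 or more, up to 81. Loci with no other place were detected in some organ in 37.2% and those with one in 40.6%.

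Strand is not a column of the table, but its rows run in blocks ordered by position. In the first block of each chromosome 15654 named loci lie on the plus strand of the reference and 68 on the minus strand, and in the second 70 and 15419. The third block mixes both, with 487 and 417. Of the unnamed nuclear loci, 143 stood in the first block, 151 in the second and 380 in the third, which holds 1292 loci in all. Read as plus and minus, the first and second blocks matched the strand of a reference gene missing from the table at 145 of 160 loci. Loci of the third block were shorter, at a median of 557 against 841 bases, and more rarely had several transcript starts, at 9.21% against 17.7%. They lay at a reference gene in 47.9% of cases, against 70.3%. Their share detected in some organ was 36.2%, against 37.9% in the first and second blocks.

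The unnamed loci lay farther from named loci than named loci from each other. The median distance to the nearest named locus was 702 bases, against 429, and 62.9% lay within 1000 bases, against 76.6%. Leaving out 67 loci with tied neighbours, 144 pairs could be compared, and 60 (41.7%, interval 33.9 to 49.8) had their maximum in the same organ. Among pairs of named loci 34.5% did. By organ of the unnamed maximum the share was 20 of 33 in roots, 25 of 54 in flowers, 5 of 17 in leaves and 10 of 40 in siliques. For named loci these shares were 43.4% in roots, 36.2% in flowers, 19.0% in leaves and 20.6% in siliques. Among neighbours within 1000 bases the order of the unnamed shares changed, with 18 of 34 in flowers and 10 of 21 in roots.

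The remaining 105 unnamed rows share an interval with another row, and 74 of them overlap a named locus. All 12 loci without a usable status are among the 105. For XLOC_008352, XLOC_008357, XLOC_008553, XLOC_008603, XLOC_008618, XLOC_014223, XLOC_021102, XLOC_021178, XLOC_024327, XLOC_026290 and the mitochondrial XLOC_034283 the status told of low data in all 4 libraries, at 0 to 2.11 FPKM. XLOC_033976 failed in siliques and was listed at 7.40 FPKM in roots and 40.4 in leaves, with 23.6 in flowers and 19.2 in siliques. None of the 12 entered a comparison.

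Known genes checked the organ labels. The root genes AT4G26010, AT3G62680 and AT2G36100 were highest in roots, the anther and pollen coat genes AT5G07550, AT3G28780 and AT5G07530 in flowers, and the seed coat genes AT1G61720 and AT5G48100 in siliques. AT3G22640, a seed storage gene of late seeds, went against this, with 7.33 FPKM in roots and 0.369 in siliques. AT5G38410, a Rubisco small subunit, stood at 4099 FPKM in leaves and 5068 in siliques. The photosynthesis genes AT1G67090 and AT1G29930 had a listed 0 in leaves and in siliques, where the status told of too many fragments.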

How the data were processed

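Per the labels' protocols, libraries were made from DNase-treated total RNA with the TruSeq RNA kit, version 2, which does not mark strand, and sequenced on a HiSeq instrument. Per the submitters' processing notes, the authors' tools were Cufflinks and TopHat, with TAIR10 as the build (no tool version is given in the sources used here). The deposited table gives, per the file headers, an FPKM, an interval and a status for each locus and organ. The deposited values were used unscaled. Library sizes were not used here.

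Positions are counted from 1. The reference was TAIR10.1, with 98.2% of 25887 named loci overlapping the same code there. It was not used for the mitochondrial genome. Copies were found with blastn 2.17.0 at an e-value of at most 1e-10, alignments made with mafft 7.526, and other values computed with pandas 2.3.3 and scipy 1.17.1. Loci with a usable status in all 4 libraries and at least 1 FPKM in some organ were compared on log2(FPKM + 1), with a pseudocount of 1 FPKM. With 1 library per organ no test was run, and a lone value has no replicate check.

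The loci and lists were chosen with earlier results of these data known. Named loci are, per organ, the 4 highest and the 4 most organ-preferential, the 3 longest and 3 shortest, the 4 most even at 10 FPKM or more, all organelle loci, all without a usable status and those of the 100 kb window with the most unnamed loci. Loci named for intervals above 0, XLOC_008452 and XLOC_014332 were named after their values were seen. Reads of overlapping or near-identical loci cannot be told apart.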

Additional observations from a re-analysis of the deposited data

How the results depend on the processing

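No paired analysis was possible because each organ has 1 library. Values follow the order roots, leaves, flowers, siliques. Detected loci (84, 70, 136 and 119) became 127, 107, 254 and 186 at 0.5 FPKM, 23, 16, 23 and 35 at 5 FPKM, and 3, 1, 3 and 1 with a lower end above 0. Without the limit on low values, the maximum lay in leaves for 8.15% and in flowers for 46.2%. Preferential loci (8, 3, 12 and 24) became 22, 12, 50 and 52 with a pseudocount of 0.1 FPKM, 1, 0, 2 and 9 with 5 FPKM, 29, 12, 49 and 54 at 2-fold, and 2, 0, 4 and 12 at 8-fold. They were 0, 0, 0 and 0 with separate intervals, and 5 in roots and 6 in leaves with median-of-ratios scaling. The preferential shares over all compared loci were 7.94%, 1.11%, 6.26% and 4.27% with 0.1 FPKM, and 2.60%, 0.315%, 1.53% and 1.32% with 5 FPKM. At 2-fold these shares were 11.8%, 2.73%, 8.04% and 5.62%, and at 8-fold 2.82%, 0.230%, 1.78% and 1.57%. Loci higher in roots than in leaves, the reverse, higher in flowers than in siliques and the reverse (15, 9, 15 and 26) became 43, 27, 62 and 60 at 2-fold, 41, 32, 64 and 58 with 0.1 FPKM, 1, 1, 2 and 9 with 5 FPKM, and 0 each with separate intervals. Over all compared loci the pair shares were 23.6%, 13.4%, 13.5% and 8.42% at 2-fold, and 13.8%, 10.1%, 9.52% and 5.98% with 0.1 FPKM. With 5 FPKM they were 3.89%, 4.57%, 1.86% and 1.67%. No share over all compared loci was computed for separate intervals. The median tau was 0.739 with 0.1 FPKM and 0.908 with 5 FPKM. The share in gene-poor windows was 0.890% with 1000 kb and 17.8% by protein-coding loci. The other 65 of 121 alternative values stayed within 1.5 times the count or inside the interval of the share. The order of flowers and siliques turned at 5 FPKM for detection, with scaling for the maximum (76 and 79), and at 2-fold and 0.1 FPKM for the pair. The order of roots and leaves turned with scaling for the preferential loci (5 and 6) and for the pair (12 and 13). Alternatives without the chromosome 3 loci, with own intervals and with windows by protein-coding loci were chosen after seeing the data. So were spans of at least 200 bases for detection, and all values by reference gene or for scaled named loci. Counts thus rest on the limit chosen, and the wide intervals allow no call at an unnamed locus. With 1 library per organ, no difference has a replicate check, and values of short or repeated loci are the least sure.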
